A study of Drosophila melanogaster with 2 samples.

Results

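The regions described here are peaks of the zinc finger protein Crooked legs (Crol) whose summits lay just downstream of a protein-coding transcription start site (TSS). A peak of the authors' conservative joint list was taken as a member when its nearest protein-coding TSS on 2L, 2R, 3L, 3R, 4 or X was more than 100 and at most 500 bp away and the summit lay on the transcribed side of that start. Of 9211 such peaks, 685 were members, 7.44% (exact Clopper-Pearson 95% interval 6.91 to 7.99). Intervals here and below cover counting error only, and no test was made between bands or lists. They belonged to 640 genes, and 13 of them lay at a start annotated to more than 1 gene. Within that list the rule used positions alone, so the signals, replicate values and sequences given below had no part in it. The list itself had been cut by the authors by how far peak ranks repeat. Binding was mapped by chromatin immunoprecipitation and sequencing (ChIP-seq) in whole Drosophila melanogaster embryos of a strain named crol-GFP, with an insertion targeting crol, which expresses Crol fused to enhanced green fluorescent protein. Embryos were 0 to 24 h old. The pull-down used an antibody against the fluorescent tag, although a second label gives crol as the antibody. The 1 group held 2 biological replicates of this strain, with no untagged or untreated group to compare, and a control experiment that the labels name was not analysed here.

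Crol is a nuclear protein with a row of DNA-binding zinc fingers, and its gene is induced by the moulting hormone ecdysone. The stretch just past a start site holds the end of the core promoter, the 5′ UTR and, in many genes, the first splice site and the beginning of the first intron. In Drosophila, RNA polymerase often pauses shortly after the start, and regulatory proteins are known to bind in first introns as well as upstream of genes.

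Sequences at some of the strongest members are given here to show runs of G on 1 strand, which are runs of C on the other. Of the 20 strongest members, 15 had a run of at least 5 within 50 bp of the summit. Over all members the share was 47.45%, against 53.1% of all conservative summits. The sequences were read from the RefSeq copy of the dm6 genome (Release 6). They are written 5′ to 3′ on the strand of the gene, with every run of at least 5 G or 5 C in capitals. For members in 5′ UTRs, 29 bases centred on the run nearest the summit are given for the 6 strongest that had such a run within 50 bp of the summit.
Eip75B (chr3L:17971312-17971340, minus strand): atGGGGGGcaccGGGGGagtggaggccga
CG10492 (chr2L:19054406-19054434, plus strand): gccgcccgcgcaCCCCCtaccccgctaac
Ppcs (chr3R:19147534-19147562, minus strand): gcccctgccccgCCCCCCtgccacgcata
GAPcenA (chr3L:8346797-8346825, plus strand): caccgtccaccaCCCCCttgaaggcccaa
kay (chr3R:29773112-29773140, plus strand): gccacccaacctCCCCCgcccctacgccc
CG7546 (chr3L:7511259-7511287, plus strand): ttccccgccttCCCCCCtccaccaacgaa

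For members in first introns, the summit and 50 bases on each side are given for the 6 strongest on 2L, 3L, 3R and X whose window touched no annotated exon, whether or not a run was present. Sequences of the right arm of chromosome 2 are not shown, and the first-intron members of Pka-R2, lig and cora there, each with a G run, had higher signals than those of CycE, Pino and lute.
spi (chr2L:19575333-19575433, minus strand): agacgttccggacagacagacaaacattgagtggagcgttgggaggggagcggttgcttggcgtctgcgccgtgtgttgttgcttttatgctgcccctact
Su(Tpl) (chr3L:19908911-19909011, minus strand): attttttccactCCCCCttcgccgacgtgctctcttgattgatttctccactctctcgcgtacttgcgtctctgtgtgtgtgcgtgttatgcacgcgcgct
tgo (chr3R:9019751-9019851, minus strand): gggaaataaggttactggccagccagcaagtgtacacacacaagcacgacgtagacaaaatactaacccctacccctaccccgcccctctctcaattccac
CycE (chr2L:15747604-15747704, minus strand): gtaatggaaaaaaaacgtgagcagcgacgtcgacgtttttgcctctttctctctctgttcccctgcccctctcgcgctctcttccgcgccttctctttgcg
Pino (chr2L:1128477-1128577, minus strand): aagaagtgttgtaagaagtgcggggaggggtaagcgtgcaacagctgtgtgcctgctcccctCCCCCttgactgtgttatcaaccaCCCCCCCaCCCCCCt
lute (chr3R:17386315-17386415, plus strand): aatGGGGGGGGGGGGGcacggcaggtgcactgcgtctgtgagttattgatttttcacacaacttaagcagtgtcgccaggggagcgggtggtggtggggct
In the 5′ UTR windows the run read as C on the strand of the gene in all but Eip75B, whose window held 2 runs of G. Of the intron windows shown, that of Pino held 3 runs of C, that of Su(Tpl) 1 run of C and that of lute 1 run of G. Those of spi, tgo and CycE held none.

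Summits were spread over the whole window downstream of starts, without the steep fall seen on the upstream side. Members lay a median of 272 bp past the start (quartiles 197 and 400), with 184, 197, 134 and 170 of them in successive steps of 100 bp away from the start. Upstream, 857 summits lay at the same distances, 447 of them in the first step and 85 in the last. Another 704 summits lay within 100 bp of a start, and 6965 lay more than 500 bp away. The peak interval of 154 members (22.5%) reached back over the start itself. For 16 members a non-coding start was nearer than the coding one.

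Each band was set against the length of sequence that meets the same rule, counted base by base over the 6 arms. Members numbered 104.3 per Mb over 6.57 Mb, against 68.8 per Mb for all summits over all sequence. The upstream band held 167.5 per Mb over 5.12 Mb, the band at the start 193.1 per Mb and the remaining sequence 58.8 per Mb. Downstream positions thus held more summits per base than distal sequence and fewer than upstream positions. The count against the upstream side depended on how starts were defined. With the outermost 5′ end of each gene as its only start, in place of every annotated transcript start, 614 summits lay downstream and 479 upstream, at 115.0 and 118.8 per Mb. The ratio of downstream to upstream summits was then 1.28 in place of 0.799.

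**Figure D1:**
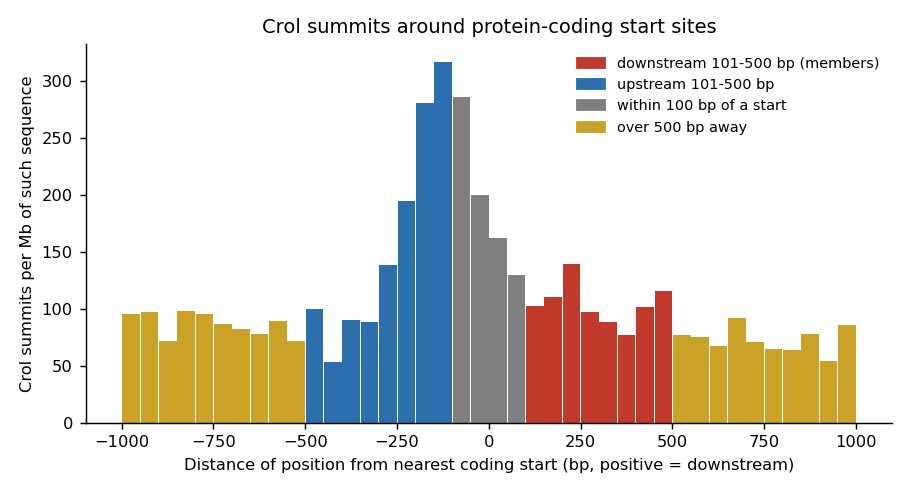
Density of Crol summits (vertical axis, summits per Mb of sequence at that distance) in 50 bp steps of distance from the nearest protein-coding start (horizontal axis, bp, positive downstream), coloured by the midpoint of each step. The density peaked at 316.8 per Mb just over 100 bp upstream and lay between 77.4 and 139.8 per Mb over the downstream window.

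At the near edge of the window, the first members past 100 bp were Arf6 (signal 490.7), Chro (395.4) and chk (213.9), where signal is the authors' deposited peak height, and the summits just outside at 100 bp were those of Aef1 (359.7), sima (76.1) and Wdr62 (72.3). At the far edge, the last members, at 500 bp, were Klp98A (64.0), Rsod (59.6) and 1 more on 3R (539.0). Just outside it lay CG5065 at 501 bp (79.6) and ClC-c and elm at 503 bp (99.7 and 17.7). Signals inside and outside overlapped at both edges.

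Members lay in 5′ UTRs and first introns and were sparse in coding exons. By the transcript that begins at the nearest start, 305 summits (44.5%, 40.8 to 48.3) lay in the 5′ UTR, 248 (36.2%, 32.6 to 39.9) in the first intron and 126 (18.4%, 15.6 to 21.5) in coding sequence. Of all bases at such positions, 23.8% are 5′ UTR, 24.5% first intron and 48.1% coding sequence. Per Mb of each kind, there were 194.9 members in 5′ UTRs, 154.4 in first introns and 39.9 in coding exons. A further 6 lay in later introns, and 0 of 685 in a 3′ UTR, which made up 1.22% of the bases. Median signals were 143.8 in 5′ UTRs (quartiles 86.6 and 260.4), 126.4 in first introns (81.3 and 233.6) and 114.0 in coding exons (74.9 and 262.6), so the quartiles of the 3 positions overlapped widely. First-intron members lay a median of 132 bp past the first splice site (quartiles 58 and 211.5), and 105 of the 248 lay within 100 bp of it.

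**Figure D2:**
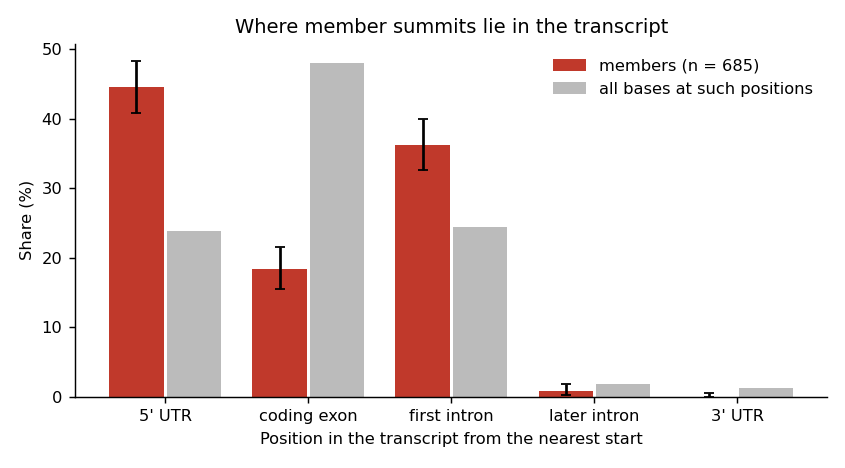
Share of member summits (red bars, n = 685, with exact 95% intervals) and of all bases at the same positions (grey bars) in each part of the transcript; the vertical axis is the share in percent. Members exceed the share of bases in 5′ UTRs (44.5% against 23.8%) and first introns (36.2% against 24.5%) and fall below it in coding exons (18.4% against 48.1%).

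The 661 starts behind the members had longer first introns than all coding starts, as did starts with a summit elsewhere near them. The median first intron was 810 bp long, against 201.5 bp over all 19607 coding starts, 690.5 bp at starts with a summit within 100 bp and 1784 bp at starts with a summit upstream. In all, 641 starts (96.97%) opened a spliced transcript, against 87.8% of all starts and 94.6% and 93.8% in the other bands near starts. The core of the DNA replication-related element (DRE, letters TATCGATA, bound by the factor Dref at many housekeeping promoters) lay between 100 bp upstream and 50 bp downstream of 81 member starts, 12.3% (9.85 to 14.999). The share was 6.25% over all coding starts, 5.82% at starts with a summit within 100 bp and 0.965% at starts with a summit upstream. A TATA box (TATAAA, on the strand of the gene only) lay in the same window of 8.32% of member starts (6.33 to 10.7) and 15.7% of all starts. The other bands were like the members, with 7.10% within 100 bp and 8.32% upstream. A start of another coding gene running the other way lay at most 1000 bp upstream of 266 member starts (40.2%, 36.5 to 44.1). The share was 31.5% of all coding starts and 37.2% (33.6 to 40.9) of starts with a summit within 100 bp. Upstream starts had 10.5%, and there the rule itself leaves less room between divergent starts.

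Member signals were of the size of those at other promoter positions. The median was 130.1 (quartiles 81.3 and 243.5; range 2.17 to 2122), against 113.4 for the whole list, 143.4 upstream, 111.6 within 100 bp of starts and 109.3 farther away. In all, 90 members (13.1%) were in the strongest 10% of the list and 4 among its 100 strongest peaks. Signal hardly followed the distance from the start (Spearman rho = -0.02 across the 685 members, which share their libraries). The median interval was 410 bp wide in each band, and members' widths had quartiles of 299 and 410 bp.

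**Figure D3:**
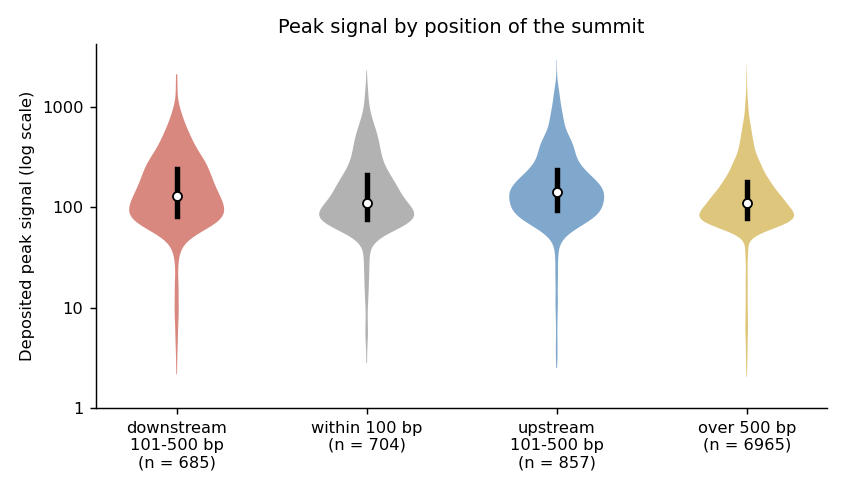
Deposited peak signal (vertical axis, log scale) for members and for the other bands of the conservative list; outlines are the distribution, dots medians and bars quartiles. The medians run from 109.3 over 500 bp away to 143.4 upstream, with members at 130.1.

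The 20 strongest members had signals from 673.7 upward and all were overlapped by a thresholded peak of each replicate alone. Of these, 14 lay in 5′ UTRs, 4 in first introns and 2 in coding exons, and 15 had a G run within 50 bp of the summit. The strongest lay in the first intron of Pka-R2, which encodes a regulatory subunit of cyclic AMP-dependent protein kinase, on 2R from 10025277 to 10025905 (minus strand), 444 bp past the start. Its signal was 2122 in the joint list, 1281 in replicate 1 and 842.3 in replicate 2. Joint values here lay close to the sum of the 2 replicate values, as given below for members with both. The second lay in the 5′ UTR of Eip75B, an ecdysone-induced nuclear receptor, on 3L from 17971132 to 17971530 (minus strand), 109 bp past a start, with 1858 jointly, 1063 in replicate 1 and 794.8 in replicate 2. These were higher in replicate 1, whereas the third was close to equal. It lay in the 5′ UTR of CG10492 on 2L from 19054204 to 19054641, with 1639 jointly, 803.2 in replicate 1 and 837.9 in replicate 2. Ppcs, which encodes an enzyme of coenzyme A synthesis, followed with 1432 jointly, 774.5 in replicate 1 and 650.4 in replicate 2.

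Below these 4, signals fell to under 1000. GAPcenA, a Rab GTPase-activating protein, had 951.8 (508.7 and 436.3 in replicates 1 and 2). The AP-1 transcription factor gene kay, the fly Fos, had 923.4 (411.6 and 483.3), on 3R from 29772740 to 29773325 in its 5′ UTR. CG7546 had 915.4, Madm (an adaptor protein related to NRBP kinases) 910.7 and qm (an enzyme of isoprenoid synthesis) 874.0. The member of spi, which encodes the main ligand of the EGF receptor, had 864.9 in the first intron, and here the replicates were the least alike of the 20, at 546.9 and 310.8. Smox, the transcription factor of Activin signalling, had 838.7, and Xe7 829.0. Genes of general transcription and splicing were among the rest, with Su(Tpl) (an elongation factor of RNA polymerase) at 813.6, SmD3 (a core protein of the spliceosome) at 804.7 and Taf1 (a subunit of the basal factor TFIID) at 745.5. CG5521 had 797.6, tgo (a bHLH-PAS partner protein) 768.6, fz4 (a Frizzled receptor) 751.8, Su(z)12 (a core subunit of the Polycomb complex that methylates histones) 740.2 and Ak3 (a mitochondrial adenylate kinase) 673.7. Across the 20, the log2 ratio of replicate 2 to replicate 1 ran from -0.82 to 0.23, and 16 were higher in replicate 1.

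Most members were found again in each replicate's own thresholded list. A peak of replicate 1 overlapped 530 of 685 members by at least 1 bp (77.4%, 74.05 to 80.5), against 74.6% of the whole conservative list. A peak of replicate 2 overlapped 479 (69.9%, 66.3 to 73.3), against 64.4%. Both did so for 431 members (62.9%), neither for 107. The 431 had a median signal of 203.2, the 99 found with replicate 1 alone 89.4, the 48 found with replicate 2 alone 80.0 and the 107 with neither 67.4. Repeated members were thus the stronger ones, and the upper quartile of those with neither, 77.2, lay below the lower quartile of those with both, 137.1. The shares for members lay a few percent above those of the whole list, and those of the upstream band were higher again, at 81.8% and 77.1%.

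In the longer ranked list of each replicate, a summit within 100 bp gave a signal for 602 members in both. The lists were made separately and no scaling between them is stated. Across these members, the joint signal over the sum of the 2 replicate signals had a median of 0.9995 (quartiles 0.9757 and 1.019). The joint signal was thus close to that sum and is not a measurement apart from the replicates. Since the depth of each replicate is unknown, only ratios relative to each other can be read. The median log2 ratio of replicate 2 to replicate 1 was -0.27 (quartiles -0.56 and -0.03), and 464 members (77.1%) were higher in replicate 1. Over all 8289 conservative peaks with both signals the median was -0.28. In 575 of the 602 (95.51%) the signals were within a factor of 2, against 95.46% of those 8289 peaks, and Pearson's r of the log2 signals was 0.918 and Spearman's rho 0.888 across these members, which the authors' threshold had selected for repeated ranks. Ranked by the ratio as it stands, the most unequal were rdog (90.5 and 32.4 in replicates 1 and 2), Pits (86.7 and 33.5), Cyt-b5 (165.7 and 65.2), AMPKalpha (107.4 and 42.3) and Mlc-c (97.9 and 39.9). All 5 were higher in replicate 1, the direction of the median ratio. Relative to that median, CG3719 (40.6 and 87.8) and lost (47.2 and 95.5), picked after their values were seen, departed farther than rdog and in the other direction. The most equal were mri (36.04 and 36.03), ENGase (71.0 and 70.9), Usp2 (84.6 and 84.4), hfp (72.8 and 73.1) and CG32813 (32.7 and 32.6). No such summit was found in replicate 1 for 43 members and in replicate 2 for 66.

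**Figure D4:**
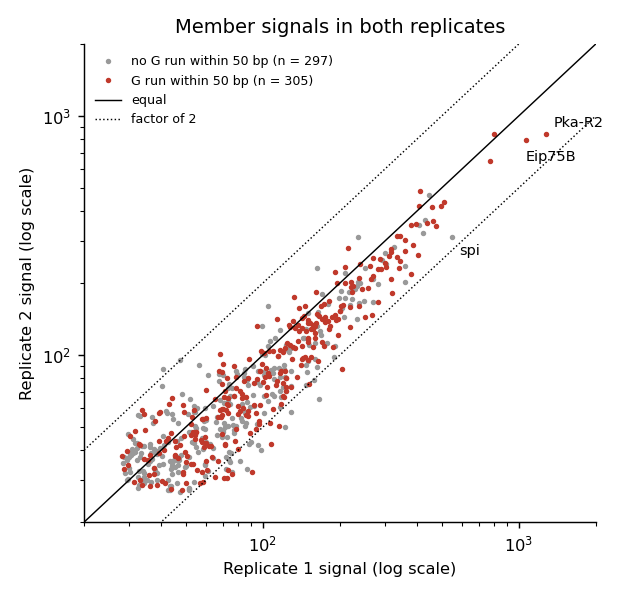
Signal of each of the 602 members in replicate 1 (horizontal axis) and replicate 2 (vertical axis), both on log scales, with members that have a G run within 50 bp of the summit in red (n = 305) and the others in grey (n = 297). Of the points, 95.5% lie within a factor of 2 of equality (dotted lines), most of them below the line of equality.

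A small set of members lay beside stronger summits. In 48 members (7.01%, against 6.96% of the whole list) a stronger summit of the list lay within 250 bp, and their median signal was 34.8, against 142.2 for the others. Of the 44 members with a signal under 50, 34 were of this kind, among them the weakest, Cpr (2.17), CG9646 (3.04) and eRF1 (3.40). Being weaker than a neighbour is what defines the 48, so their low signals are in part built into the definition. The shape of the peaks was not examined.

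Runs of at least 5 G (GGGGG on either strand) were found within 50 bp of the summit in 325 members, 47.45% (43.7 to 51.3), against 53.1% of all conservative summits. In windows of the same length 250 bp to each side of the member summits the share was 7.88%, and in windows 250 bp downstream of every coding start it was 6.19% (1030 of 16648). The members' share lay between that of distal summits (57.8%) and those of upstream summits (38.6%) and of summits within 100 bp of starts (29.3%). The intervals of members and upstream summits (35.4 to 42.0) did not overlap. Shares were 48.5% in 5′ UTRs, 50.4% in first introns and 39.7% in coding exons, whose intervals overlapped (42.8 to 54.3, 44.0 to 56.8 and 31.1 to 48.8).

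Members with a G run had the higher signals, as did summits with a run in each of the other bands. The median of members with a run was 173.2 (quartiles 101.5 and 303.4), against 107.3 (72.5 and 184.3) for the 360 without one. Medians with and without a run were 202.8 and 97.7 within 100 bp of starts, 176.3 and 126.3 upstream and 120.4 and 95.9 farther away. With the members split by signal into 4 groups of about equal size, the share with a run went from 25.6% in the weakest group to 45.6%, 50.9% and 67.8% in the next ones. Of the members with a run, 72.9% were overlapped in both replicates' thresholded lists, and of the others 53.9%. All of the first 10 sequences of 6 bases ranked by their share at member summits over that in the flanks held at least 4 G or 4 C in a row. CCCCCC was present at 19.7% of members and in 1.97% of flanking windows, AGGGGG at 24.4% and 2.55%, CCCCTC at 27.2% and 2.99%, and GCCCCC at 21.9% and 2.63%, each counted on both strands. Over all conservative summits the first 3 were more frequent still, at 30.3%, 31.6% and 29.5%, and GCCCCC was less so, at 19.2%.

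**Figure D5:**
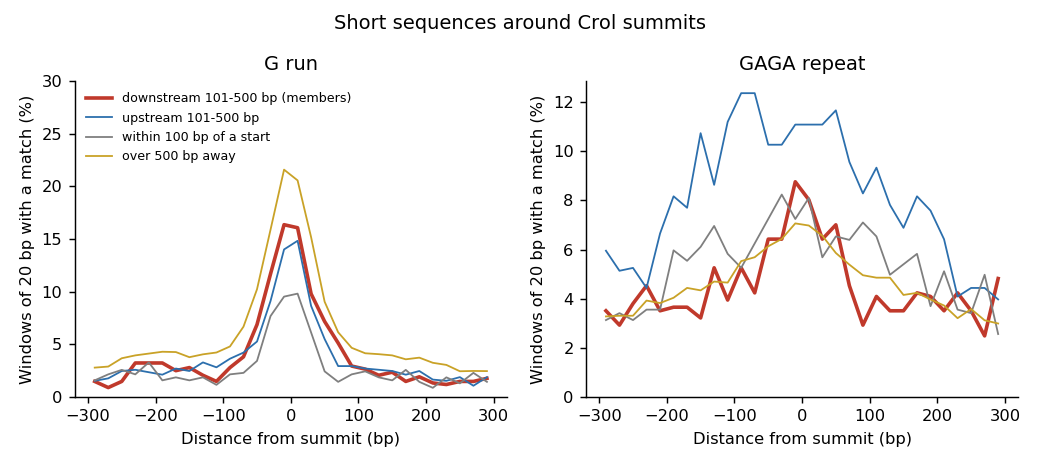
Share of windows of 20 bp (vertical axes, percent) that held a G run (left) or a GAGA repeat (right) at each distance from the summit (horizontal axes, bp), for members (thick red) and the other bands. The G run peaked at the summit of members at 16.4% of windows, and the GAGA repeat showed its highest values upstream of starts.

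Where a member had the run on 1 strand only, the G lay on the template strand of the gene in 212 and on the coding strand in 106 (66.7% template, 61.2 to 71.8). The windows past starts in general, which include the members' own starts, were alike. In the windows 250 bp downstream of every coding start, 64.3% (61.3 to 67.3) of such runs had G on the template strand, and in members and in those windows the share was highest in 5′ UTRs (73.3% and 70.2%). At upstream summits it was 53.7%. The strand of the runs at members was thus close to that in the sequence past starts in general.

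Other short sequences were less concentrated. GAGAG, the core of the repeat bound by GAGA factor and Pipsqueak, was found in 181 members (26.4%, 23.2 to 29.9), against 25.9% of all conservative summits, 14.6% of the flanks and 35.7% of upstream summits. CACAC was found in 220 members (32.1%, 28.6 to 35.8), against 27.8% of all conservative summits and 29.6% of the flanks. AAAAA was less frequent at member summits than beside them, at 27.6% against 44.3%, and the median GC content of the windows was 55.45% (53.5% for all conservative summits). GAGA repeats were as frequent with a G run (26.2%) as without (26.7%). The Zelda core CAGGTA and the nuclear receptor half-site AGGTCA were each found in 14 members (2.04%), against 1.88% and 2.03% of all conservative summits and 2.99% and 2.85% of the flanks. TGACTCA, the AP-1 core, was found in 7 (1.02%), against 0.782% of all conservative summits. TATCGATA was found in none of the members (at most 0.438% by the limit of 3 counts) and in 0.369% of all conservative summits. It was found in 2.34% of the flanks and in 0.102% of windows 250 bp downstream of every coding start. For GAGA repeats, the Zelda, AP-1 and DRE cores and the half-site, the members' interval included the share of the whole list. The interval of CACAC lay above it. That of AAAAA, 24.27 to 31.10%, ended just below the whole-list share of 31.11%. The TATA box was found at 3.36% of member summits (2.14 to 4.996), against 5.52% of all conservative summits. Its share was 8.69% of the flanks and 7.14% of windows 250 bp downstream of every coding start. CAGCTG, the E-box, was found at 7.59% (5.72 to 9.84), against 5.68% of all conservative summits. The flanks had 6.35%, within the members' interval.

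The members were spread over the large arms, with the highest density on X. There were 137.2 members per Mb of eligible sequence on X (151 members), 117.1 on 3L (150), 99.3 on 3R (156), 98.2 on 2R (132) and 78.3 on 2L (96), and 0 on chromosome 4. With the ranked peaks past the score that are absent from the conservative list as used here, 3R had 182 (115.9 per Mb) and 2L 102 (83.2 per Mb), while X and 3L had the same values. All conservative summits also had their highest density on X (82.5 per Mb of the arm) and, among the large arms, their lowest on 3R (59.0), with 63.8 on 2L. Median signals ranged only from 123.0 on 3R to 138.1 on 2R. In 5′ UTRs and in coding exons there were 80 and 12 members on X, 67 and 31 on 3L, 64 and 33 on 3R, 52 and 26 on 2R and 42 and 24 on 2L.

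A member was present at 640 of 13945 protein-coding genes, 4.59%, and the gene lists below are read against that share and against the genes with any summit within 500 bp of a start (1840, 13.2%, of which the 640 are 34.8%). Polycomb group genes, whose proteins keep developmental genes silent, stood at 7 of 27 (25.9%, 11.1 to 46.3), and 10 had a summit within 500 bp of a start. Besides Su(z)12 (740.2), these were ph-p (214.7) and ph-d (120.5), near-identical neighbouring copies of polyhomeotic between which reads may be hard to place, Su(z)2 (116.9), jing (94.1), phol (73.2), a DNA-binding protein, and cg (61.5). The replicates gave 98.9 and 132.4 at ph-p and 48.4 and 68.4 at ph-d, both higher in replicate 2, unlike most members. The counterpart list of trithorax group and remodeller genes had 1 of 31, kis (107.2), while 11 had a summit within 500 bp of a start. Peaks past the score threshold at member positions of mor (124.5), tara (113.7) and trx (63.2) are in the joint ranked list and absent from the conservative list as used here, and with them the count was 4 of 31 (12.9%, 3.63 to 29.8). The interval of Polycomb group genes overlapped both, so a difference between these lists is not shown.

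Of 81 transcription factor genes that Polycomb proteins are known to silence, 7 (8.64%, 3.55 to 17.0) had a member, an interval that includes the 4.59% of all genes. Summits upstream were present at 40 of them, and 52 had a summit within 500 bp of a start. These were dac (419.4), bowl (310.0), sd (282.7), hth (122.4), tio (81.4), srp (75.9) and drm (61.4). None of the 8 Hox genes had one, although 3 had a summit within 500 bp of a start, and of 30 segmentation genes there were 3, cnc and nkd (126.6 each) and ptc (46.6), the receptor for Hedgehog. Of 20 genes for BTB zinc finger and GAGA-binding proteins, 0 had a member, which at a limit of 3 counts allows up to 15%, while 12 had a summit within 500 bp.

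Among signalling genes, the Wingless list had 5 of 31 (16.1%, 5.45 to 33.7), running from a receptor to inner components, and 12 had a summit within 500 bp of a start. These were fz4 (751.8), gish (a casein kinase, 429.1), arm (the fly beta-catenin, 278.6), dsh (which relays the signal from Frizzled, 195.6) and nkd (an inducible inhibitor, 126.6). At arm the replicates gave 141.8 and 129.4, at dsh 116.5 and 80.5. The ecdysone list had 6 of 42 (14.3%, 5.43 to 28.5; 16 of the 42 had a summit within 500 bp of a start), with Eip75B (1858) far above EcR (the hormone receptor, 249.8), Eip74EF (an ETS factor, 118.1), Ldh (113.3), Oatp74D (the importer of the hormone, 97.96) and Eip63F-1 (87.9). The JNK and AP-1 list had 3 of 11 (27.3%, 6.02 to 61.0), kay, hep (a JNK kinase, 209.4) and Traf4 (62.7). In that list 4 of the 11 had a summit within 500 bp of a start. It rests on few genes, and its interval is wide.

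JAK-STAT and Hippo genes had 3 of 23, which were sd (the DNA-binding partner of Yorkie, 282.7), dco (127.2) and Ptp61F (77.1). Dpp and EGFR signalling had 2 of 33, spi and wit (a receptor for bone morphogenetic proteins, 146.4). Notch signalling had 1 of 26, mib1 (a ubiquitin ligase acting on Notch ligands, 483.7), and FGF and tracheal genes 0 of 13 (up to 23.1%). Cyclic AMP and protein kinase A genes had 2 of 18, Pka-R2 (2122) and rut (an adenylyl cyclase, 161.7). Programmed cell death genes had 1 of 14, Debcl (215.9). With the ranked peaks past the score absent from the list as used here, Dpp and EGFR genes had 4 of 33 (3.40 to 28.2%) and JAK-STAT and Hippo genes 4 of 23 (4.95 to 38.8%). Each of these 6 lists rests on few genes, and without the added peaks their intervals reach from below to above 4.59%.

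Other lists of chromatin and housekeeping genes had intervals that include the share of all genes. Corepressors had 1 of 12, Gug (the fly Atrophin, 201.4), insulator proteins 1 of 25, Chro (395.4), and heat shock genes 2 of 23, Hsc70-5 (400.9) and Hsc70-4 (85.9). Adding the left-out ranked peaks past the score gave corepressors 2 of 12 (2.09 to 48.4%). Cell cycle genes had 3 of 49, CycE (which drives entry into S phase, 606.6) and the partners E2f1 (84.6) and Dp (72.8). Cytoplasmic ribosomal protein genes had 3 of 85 (3.53%), RpL34b (203.2), RpS3 (65.7) and RpS4 (56.0), while 26 of the 85 had a summit within 100 bp of a start. Proteasome genes had 0 of 23 and chorion and yolk protein genes 0 of 6.

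Tissue marker lists had intervals that include the share of all genes. Neural markers had 3 of 32 (9.38%, 1.98 to 25.02), eag (a potassium channel, 95.3), fax (73.3) and brp (a protein of synaptic active zones, 14.2), muscle and mesoderm markers 1 of 28 (3.57%), Mef2 (234.5), and gut, fat body and blood markers 2 of 27 (7.41%, 0.91 to 24.3), kay and srp. Germline markers had 2 of 21 (9.52%, 1.18 to 30.4), bgcn (72.6) and BicD (47.6). Proneural and neural bHLH genes (0 of 19) and epidermis and trachea markers (0 of 21) had none. The 179 odorant, gustatory and ionotropic receptor genes, which serve adult and larval senses, had 0, a limit of 1.68%, and none of them had any summit within 500 bp of a start.

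Most genes had a single member. There were 598 genes with 1, 39 with 2 and 3 with 3, which were CG31650, CG32813 and Kap3. At CG31650 the signals were 170.9, 8.45 and 62.9, at CG32813 69.4, 56.7 and 244.6 and at Kap3 359.6, 8.15 and 75.8, spread over 2 annotated starts or more of each gene. Eip75B, with 2, had 1858 at one start and 51.2 at another, 303 bp past it. For 342 of the 640 genes (53.4%) the member was the only conservative summit with that gene as nearest. A summit within 100 bp of a start was also present at 80 genes (12.5%), 1 upstream at 69 (10.8%) and 1 more than 500 bp away at 245 (38.3%). The gene crol itself had no member, since its summits lay 14 bp and 213 bp upstream of its nearest start, or 894 bp or more downstream.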

How the data were processed

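Each replicate of crol-eGFP embryos had a thresholded and a ranked peak list, and 3 further lists covered both replicates. The authors deposited peaks on dm6, per the labels, that had been ranked and cut by IDR, the irreproducible discovery rate, a measure of how far peak ranks repeat, per the file headers and notes. The signal column is the authors' deposited peak height, with no scaling stated, and the score column is the authors' rescaled IDR, at most 1000 and at least 830 in the thresholded lists. The sources used here give no aligner, peak caller or settings. Read counts were not used, so the depth is unknown, and intervals cover counting of peaks or genes only.

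Starts and transcript parts came from Ensembl annotation release 115 of the same assembly (13945 coding genes and 19607 coding starts on the arms). Summits were assigned to the nearest coding start with Python 3.11.15, numpy 2.4.6, pandas 2.3.3 and scipy 1.17.1. Sequence windows span 50 bp on each side of a summit. A replicate's signal is that of the summit within 100 bp in its own ranked list, a limit set after the data were seen. The plan had named the joint ranked list, whose replicate columns carry no name. Of 604 listed gene names, 1 had no coding match. With 1 group and 2 replicates no test was made. Assignment and transcript classes were checked on simulated data with known answers. The members, gene lists and motifs were chosen with earlier results of these data known. Named genes are those of the 20 strongest members, up to 4 of each list, those with the most members (39 tied at 2), the 5 most and least equal between replicates, the edges of the window and the strongest ranked peaks left out. Where a list has 5 to 7 members, all are named, a choice made after their values were seen, as with the weakest members. Alternatives were other lists, each replicate alone, other windows, starts and summits.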

Additional observations from a re-analysis of the deposited data

Results flagged for a closer look

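The joint ranked list, which holds peaks before the threshold, had 5399 summits at the positions that define a member, and 718 of these had a score of at least 830, the lowest in the conservative list. Of the 718, 33 were absent from the conservative list as used here, and over 32 of them no conservative peak lay at all. These 32 are a signal outside the lists used above, and the embryos have no control group to set them against. Of the 33, 26 lay on 3R, 6 on 2L and 1 on the right arm of chromosome 2, while X, with 151 such summits past the score, had none. The strongest were at pkaap (678.9), Hel89B (587.1), Nuak (491.8), CG31211 (377.0) and InR (338.7), the fly insulin receptor gene. Over the whole ranked list, 180 peaks past the score were likewise absent, 125 of them on 3R. The cause was not tested, and rows missing from the list as used here cannot be told apart from peaks the authors set aside.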

How the results depend on the processing

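Of 81 recomputed values, 53 lay within the interval of the value reported (for ratios, within 1 SD of the lists of the replicates), 27 lay outside and 1 turned direction. With the outermost 5′ end of each gene as the start, the ratio of downstream to upstream summits turned from 0.799 to 1.28, the share of summits that are members was 6.67%, the median signal ratio to all peaks 1.24 (1.15 as reported) and the share of coding genes 4.24%. The cause of the turn was not tested. With each replicate's list alone, the ratio of downstream to upstream ranged from 0.694 to 0.761, the signal ratio from 1.16 to 1.19, the share of genes from 3.26% to 3.95% and the G-run share from 48.3% to 54.8%. Among peaks at or above the median signal, the share of members was 8.53%, the downstream to upstream ratio 0.721, the share of genes 2.75% and the G-run share 57.25%. With a score of 1000 alone these were 0.742 for the ratio, 1.19 for the signal ratio and 3.86% of genes. A window from 51 bp on gave a member share of 8.72%, one that ended at 400 bp 5.59%, and one that ended at 300 bp a downstream to upstream ratio of 0.573. Within 25 and 100 bp of the summit, G runs had 33.3% and 59.6% and GAGA repeats 16.2% and 39.3%, which follows from the window length. Asking for overlap of at least 50% of the member left 74.01% with replicate 1 and 63.65% with replicate 2, and summits within 100 bp 72.3% and 64.1%. Without summits beside a stronger one, an alternative chosen after seeing the data like the addition of the left-out ranked peaks (also made for arms and gene lists), the signal ratio was 1.197. Intron shares lay within the reported interval in every alternative run. No paired analysis was possible because the study has 1 group. What depth limits cannot be stated, since no read counts were used.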

Other observations

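Members at starts with a DRE core between 100 bp upstream and 50 bp downstream numbered 85. Their median signal was 165.8 (quartiles 89.3 and 293.1), against 126.6 (81.0 and 232.0) for the 600 members at other starts, so the quartiles overlapped widely. G runs were about as frequent in both, at 45.9% (35.0 to 57.0) and 47.7% (43.6 to 51.8). The strongest of the 85, chosen here by their values, were at Madm (910.7), qm (874.0), fz4 (751.8), Rab14 (668.1), a small GTPase of membrane traffic, and CG5902 (576.4), all in 5′ UTRs. The 87 members at starts with TATAAA on either strand of the same window had a median signal of 121.4 and a G run in 44.8%. This count is wider than the share of starts given above, which took the strand of the gene only.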
